A study of Mus musculus with 2 samples.

Results

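Transcripts of the proteins of the mitochondrial ribosome were examined in rib chondrocytes from mice with a V156D knock-in at Matn1, the gene of the cartilage matrix protein matrilin-1, and from wild-type mice. The set was defined by gene symbol alone, as every gene named Mrpl or Mrps followed by a number that had at least 1 probe set listed for that gene and no other. It held 76 of the 18193 genes measured, of which 47 are named for the large and 29 for the small subunit. Where a gene had several such probe sets, the one brightest on average in log2 signal was used. RefSeq lists 78 protein-coding genes with such symbols, and the other 2, Mrpl30 and Mrpl53, had only probe sets shared with another gene.

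The mitochondrial ribosome, or mitoribosome, translates the few messenger RNAs encoded by mitochondrial DNA, whose products are core subunits of the respiratory chain and of ATP synthase. Its RNAs are transcribed inside the organelle, whereas all of its proteins are encoded in the nucleus, made in the cytosol and imported. Some of these proteins descend from bacterial ribosomal proteins and others were added during the evolution of mitochondria, mostly on the outer surface of the particle. Cartilage has little oxygen, and chondrocytes are known to rely largely on glycolysis.

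Both groups were chondrocytes of 5-day-old mice, released from dissected ribs with collagenase, and differed by genotype, V156D mutant (a knock-in at the Matn1 locus) or wild type. Each group was 1 Affymetrix whole-genome mouse array, hybridised with RNA from cells of littermates pooled before extraction. The sources used here do not say whether the knock-in was homozygous, nor give strain or sex. With 1 array per genotype no spread between animals was measured and nothing could be tested, so the values compare 2 arrays and cannot be assigned to genotype.

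The median intensity over all probe sets was 55.1 in the mutant and 54.3 in the wild-type array. The 8 chondrocyte markers, among them Col2a1 and Acan, were all bright, with summed intensities of 95166 in the mutant and 94346 in the wild-type array. Some markers of other cell types were detected too, with sums that differed between the arrays by unlike amounts. Fibroblast and tendon markers summed to 80069 in the mutant and 49932 in the wild-type array, with 10 of 11 higher in the mutant. Endothelial markers summed to 750 and 510 in the same order, with 4 of 8 at or above the signal floor. Markers of skeletal muscle, a tissue rich in mitochondria that adjoins the ribs, summed to 1856 in the mutant and 2500 in the wild-type array, and the muscle genes Myh3, Myh8, Myog and Mylpf were below the floor in mean signal. Markers of brown fat, also rich in mitochondria, summed to 635 in the mutant and 776 in the wild-type array, most of it from Cidea at 545 and 687 (log2 ratio -0.33), while its defining marker Ucp1 was below the floor. Macrophage markers summed to 372 in the mutant and 363 in the wild-type array, erythroid markers to 116 and 96.4 in that order, and osteoblast markers to 222 and 193. Of these, 3 of 6 macrophage, 1 of 5 erythroid and 2 of 6 osteoblast markers lay at or above the floor. All 11 heat shock genes measured were lower in the mutant array, with a median log2 ratio of -0.64, and 12 of 16 cell cycle genes were higher, with a median of 0.28. The 4 lower ones were replication genes, Mcm4 at -0.53, Mcm2 at -0.15, Mcm7 at -0.07 and Pcna at -0.065. Of all genes at or above the floor, 55.0% were lower and 44.8% higher in the mutant array. The part of these differences in the values below was not tested.

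Transcripts of the mitoribosome were mostly slightly lower in the mutant array, and hardly any differed by much. All 76 genes lay at or above the signal floor in both arrays, which was set at an intensity of 54.6, so that 50% of all probe sets lay below it on average. Of these, 59 had a log2 ratio of mutant over wild type below 0 and 17 above 0, against 55.0% below and 44.8% above among the 11329 genes at or above the floor. The median log2 ratio of the 76 genes was -0.09, a reduction of 6.15%, and that of all genes at or above the floor was -0.02. After loess correction for signal strength, or after quantile normalization, 48 members were below and 28 above 0, or 63.2% below in place of 77.6%, and the all-gene median was then 0.00 and 0.01. The members' median stayed below 0 in these settings, at -0.05 after loess and -0.04 after quantile normalization.

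**Figure D1:**
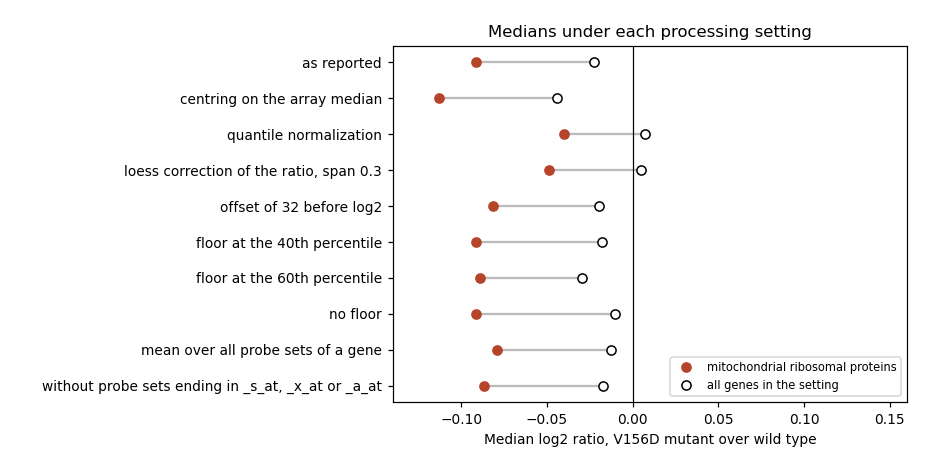
Median log2 ratio of V156D mutant over wild type for the mitochondrial ribosomal protein genes (filled) and for all genes of the same setting (open), with 1 row for each way of processing the values. The members' median lay below that of all genes in each of the 10 settings shown, by 0.05 to 0.08.

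The ratios of the 76 genes were also closer together than those of all genes at or above the floor. Only 1 member was at least 1.3-fold lower and 0 were at least 1.3-fold higher, or 1.32% and none, whereas 6.58% of all genes at or above the floor were that much lower and 4.17% that much higher. At 1.5-fold no member differed in either direction, where 2.02% of all genes were lower and 1.70% higher. The SD of the log2 ratio over genes was 0.13 for the members and 0.27 for all genes at or above the floor. A narrow spread was not particular to the members. The SD was 0.10 for 41 cytosolic ribosomal proteins and 0.11 for 4 mitoribosomal proteins with other symbols. Other related lists were wider, from 0.16 for mitoribosome assembly factors to 0.36 for mitochondrial chaperones. In 4 equal bins of genes from dim to bright the SD was 0.13, 0.14, 0.14 and 0.13 for the members, and 0.29, 0.28, 0.25 and 0.23 for all genes, so it was lower for the members at each level of signal. Within those bins the members' medians were -0.12 over 4 genes, -0.09 over 18, -0.10 over 35 and -0.04 over 19. The medians of all genes in the same bins were 0.02, -0.01, -0.04 and -0.05, so in the brightest bin the members' median was not below the others'.

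**Figure D2:**
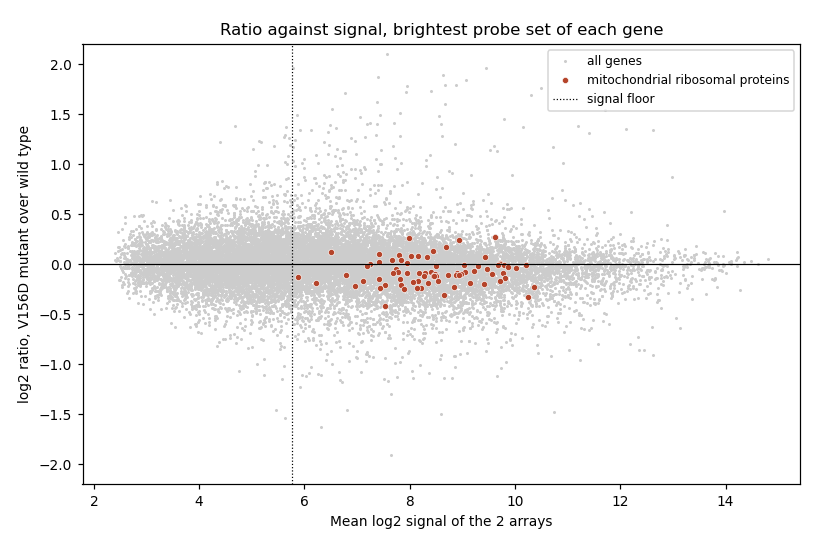
Log2 ratio of V156D mutant over wild type against the mean log2 signal of both arrays, with 1 point for each gene (grey) and the 76 mitochondrial ribosomal protein genes in red. The members lie to the right of the dotted signal floor, between -0.42 and 0.27.

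Sorted by subunit and origin, each class of mitoribosomal protein had a median below 0, though for the largest class it was close to 0 in other settings, and the classes overlapped widely. The 47 genes with Mrpl symbols had a median of -0.08, with 35 below 0, and the 29 with Mrps symbols a median of -0.12, with 24 below 0. The share below 0 over all genes at or above the floor was 55.0%. Large-subunit proteins of bacterial descent numbered 28, with 19 below 0 and a median of -0.06. For that class the median was -0.0061 after quantile normalization, with 14 below 0, -0.0163 after loess, with 15 below 0, and -0.0281 as the mean over probe sets. Its share below 0 was thus 50% after quantile normalization and 53.6% after loess, close to the 48.4% and 49.0% of all genes. Large-subunit proteins found only in mitochondria numbered 19, with 15 below 0 and a median of -0.10. In the small subunit, 14 of 16 proteins of bacterial descent were below 0, with a median of -0.09, and 7 of 9 mitochondria-specific ones, with a median of -0.15. Mrpl55, Mrps18a, Mrps18b and Mrps36 were put in no class.

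**Figure D3:**
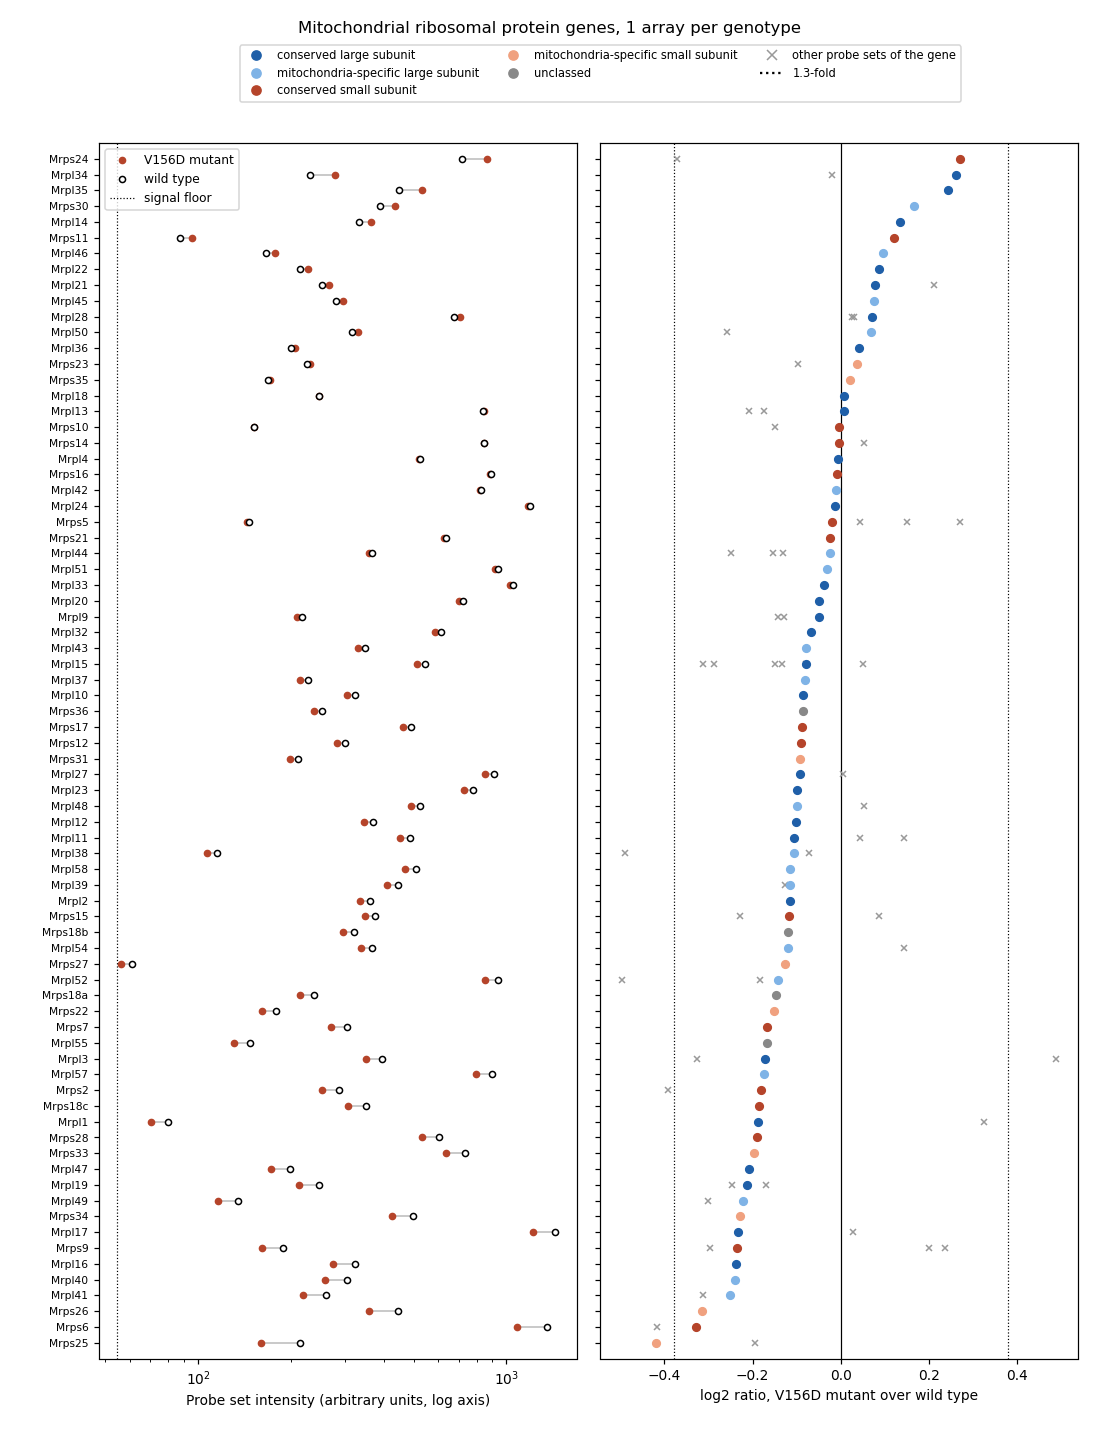
Intensity of each of the 76 genes in the V156D mutant (filled) and wild-type (open) array on a log axis (left), and its log2 ratio of mutant over wild type (right), coloured by class, with crosses for the gene's other probe sets at or above the floor. The ratios run from -0.42 for Mrps25 to 0.27 for Mrps24, and for several genes a cross lies on the other side of 0.

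The lowest ratios belonged to small-subunit genes. Mrps25, which encodes a mitochondria-specific protein of the small subunit, had an intensity of 160 in the mutant and 214 in the wild-type array, 1.34-fold lower. It was the member past 1.3-fold, and -0.20 was the log2 ratio of its second probe set. Mrps6, the counterpart of bacterial protein S6, had 1079 in the mutant and 1355 in the wild-type array, a log2 ratio of -0.33, and its second probe set gave -0.42. The reading of Mrps6 is uncertain, because in RefSeq the gene overlaps Slc5a3, which encodes a myo-inositol transporter, over 29138 bases. Slc5a3, named after the overlap was looked up, had 1110 in the mutant and 1480 in the wild-type array, a log2 ratio of -0.41. Mrps26, a further mitochondria-specific small-subunit protein, had 359 in the mutant and 446 in the wild-type array, a log2 ratio of -0.31, from its only probe set at or above the floor.

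Next came large-subunit genes and Mrps9, and their support from other probe sets differed. Mrpl41, on the large subunit, had 218 in the mutant and 260 in the wild-type array, a log2 ratio of -0.25, and its second probe set gave -0.31. Mrpl40, whose human counterpart lies in the region deleted in DiGeorge syndrome, had 258 in the mutant and 305 in the wild-type array (-0.24). Mrpl16, the counterpart of bacterial L16, had 274 in the mutant and 323 in the wild-type array (-0.24). These 2 genes had 1 probe set each. Mrps9, the counterpart of bacterial S9, had 161 in the mutant and 189 in the wild-type array (-0.24), but the mean over its 4 probe sets was -0.02 ± 0.28 (SD of probe sets, not of samples). Mrpl17, which stands near the exit of the peptide tunnel, had 1221 in the mutant and 1435 in the wild-type array (-0.23), the brightest probe set of the members, and its second probe set gave 0.03. The low values of Mrps9 and Mrpl17 were therefore not shared by all of their probe sets.

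At the high end stood genes of both subunits, mostly of bacterial descent. Mrps24, the counterpart of bacterial S3 at the entry of the mRNA channel, had 867 in the mutant and 718 in the wild-type array, a log2 ratio of 0.27, while its second probe set gave -0.37. Mrpl34 had 277 in the mutant and 231 in the wild-type array (0.26), and -0.02 by its second probe set. Mrpl35 had 532 in the mutant and 450 in the wild-type array (0.24), with no other probe set at or above the floor. Thus 2 of the 3 highest values were not matched by the gene's other probe set. Mrps30, a protein named for the small subunit that resides in the large one, had 436 in the mutant and 389 in the wild-type array (0.17). Mrpl14, the large-subunit protein to which the assembly factor Malsu1 binds, had 364 in the mutant and 332 in the wild-type array (0.13). Mrps11 and Mrpl46, whose genes start 42 bases apart on opposite strands, were both higher in the mutant array. Mrps11, among the dimmest members, had 95.3 in the mutant and 87.7 in the wild-type array (0.12), and Mrpl46 had 178 and 166 (0.10). Mrpl22, which lines the peptide tunnel, had 228 in the mutant and 214 in the wild-type array (0.09).

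Genes of the stalk and of the catalytic region were all below 0 by their brightest probe sets, by small amounts, where 55.0% of all genes were. The stalk recruits translation factors, and its 3 genes had nearly the same ratio. Mrpl12, the flexible stalk protein, had 344 in the mutant and 370 in the wild-type array (-0.10), Mrpl11 at the stalk base had 453 and 488 in that order (-0.11), and Mrpl10, the stalk's anchor, had 305 and 324 (-0.09). The other Mrpl11 probe sets gave 0.04 and 0.14. Around the peptidyl transferase centre, where peptide bonds form, all 5 genes were below 0, with a median of -0.12. The median was -0.0443 as the mean over probe sets, and 4 of the 5 were below 0 in that setting, after quantile normalization and after loess. Among them, next to Mrpl16, Mrpl2 had 334 in the mutant and 362 in the wild-type array (-0.12) and Mrpl3 had 350 and 394 (-0.17). The other probe sets of Mrpl3 gave -0.32 and 0.49. Mrpl27 was at -0.09, and Mrpl4 was close to 0, at -0.01.

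Genes of the peptide exit and of the central protuberance lay on both sides of 0. Of 6 genes on the exit side, 4 were below and 2 above 0, with a median of -0.06, which was 0.0150 after quantile normalization, 0.0062 after loess and 0.0269 with only the probe sets designed for a single transcript. Mrpl45, which anchors the mitoribosome to the inner membrane next to the tunnel exit, had 295 in the mutant and 280 in the wild-type array (0.08). Mrpl47 had 172 in the mutant and 199 in the wild-type array (-0.21), Mrpl23 730 and 782 (-0.10), and Mrpl24, one of the brightest members, 1179 and 1189 (-0.01). The central protuberance is the crest of the large subunit that faces the head of the small one, and 3 of its 5 genes were below 0, with a median of -0.10 that was -0.0189 as the mean over probe sets. Besides Mrpl40 and Mrpl46 these were Mrpl38 at 107 in the mutant and 115 in the wild-type array (-0.11), Mrpl48 at 489 and 524 (-0.10) and Mrpl18 at 247 and 246 (0.01).

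In the small subunit, genes along the mRNA path and at the decoding site had a median of -0.06, with 4 of 6 below 0. Mrps2 had 252 in the mutant and 286 in the wild-type array (-0.18), and its second probe set gave -0.39, the same direction. Mrps7 had 270 in the mutant and 303 in the wild-type array (-0.17). Mrps12, the counterpart of bacterial S12 that takes part in decoding accuracy, had 281 in the mutant and 300 in the wild-type array (-0.09). Mrps5 had 144 in the mutant and 146 in the wild-type array (-0.02), but its other probe sets at or above the floor gave 0.15, 0.27 and 0.04.

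The Mrps18 family holds 3 nuclear genes related to 1 bacterial protein, S18, and their products occupy different places in the mitoribosome. All 3 were lower in the mutant array. Mrps18a, whose product sits in the large subunit, had 214 in the mutant and 237 in the wild-type array (-0.15). Mrps18b had 295 in the mutant and 320 in the wild-type array (-0.12), and Mrps18c, which takes the place of the bacterial protein, had 307 and 349 (-0.19). Each of these genes had 1 probe set. Mrps36, whose product is now known as a component of the 2-oxoglutarate dehydrogenase complex and not of the ribosome, had 238 in the mutant and 253 in the wild-type array (-0.09).

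In humans, variants of certain mitoribosomal genes cause combined deficiency of the respiratory complexes, and of 12 mouse counterparts 11 were below 0, with a median of -0.13, against 55.0% of all genes. After quantile normalization or loess 7 of the 12 were below 0, where 48.4% and 49.0% of all genes were. The 12 include Mrpl3, Mrpl12, Mrpl24, Mrps2 and Mrps7, described above. Mrps34, a cause of Leigh syndrome in humans, had 424 in the mutant and 497 in the wild-type array (-0.23). Mrps28 had 532 in the mutant and 606 in the wild-type array (-0.19) and Mrps22 161 and 179 (-0.15). Mrpl44, which resembles ribonuclease III, had 359 in the mutant and 365 in the wild-type array (-0.02), and over its 4 probe sets the mean was -0.14 ± 0.09 (SD of the probe sets). Mrps16 and Mrps14 were at -0.01 and -0.00, and Mrps23 was the gene above 0, at 0.04.

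Among the remaining members, Mrpl58 encodes a peptidyl-tRNA hydrolase that frees stalled mitoribosomes, and it had 470 in the mutant and 509 in the wild-type array (-0.11). Mrpl33, another bright member, had 1027 in the mutant and 1054 in the wild-type array (-0.04). The dimmest were Mrps27, at 56.1 in the mutant and 61.3 in the wild-type array (-0.13), and Mrpl1, at 70.3 and 80.0 (-0.19), whose second probe set gave 0.32. Mrpl52 had -0.14 by its brightest probe set and -0.50 and -0.18 by its others. Intensities of different probe sets do not rank the genes by abundance.

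Other probe sets of the same genes gave a median in the same direction, but single genes were poorly supported. The members had 127 probe sets at or above the floor and 29 below it. Over all genes that reached the floor, 55.0% were below 0 by their brightest probe set, with a median of -0.02. No share was worked out for the further probe sets of all genes. Beyond the 76 used, 51 member probe sets lay at or above the floor, with 32 ratios below and 19 above 0. Their median was -0.13. Of 31 members with at least 2 such probe sets, 14 had ratios of 1 sign, 12 of them below and 2 above 0. That is 45.2%, against 52.5% of the 4878 genes of the whole array with several probe sets. From the difference between the 2 brightest probe sets of a gene over all genes, the SD of a single probe set's log2 ratio was 0.18, and 57 of the 76 members had a ratio smaller than this in size. Ratios below 0 in every one of 3 or more such probe sets were found for Mrpl9, Mrpl19, Mrpl38, Mrpl44 and Mrpl52. Mrpl19 had 212 in the mutant and 246 in the wild-type array, and over its 3 probe sets the mean was -0.21 ± 0.04 (SD of the probe sets).

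Lists of genes that serve the mitoribosome had medians below 0. Of all genes 55.0% were below 0. Of 4 mitoribosomal proteins with other symbols, 3 were below 0, with a median of -0.06, and Chchd1 and Dap3 were lowest at -0.12 and -0.09, with Gadd45gip1 and Ptcd3 at 0.12 and -0.03. The median of these 4 was -0.0048 after quantile normalization. Among 10 translation factors of mitochondria, 8 were below 0, with a median of -0.08. The initiation factor gene Mtif2 had 312 in the mutant and 375 in the wild-type array (-0.26) and the recycling factor gene Mrrf 210 and 247 (-0.23). Mtfmt, which formylates the initiator methionyl-tRNA, and Guf1, an elongation factor, were highest at 0.31 and 0.26. Of 19 assembly factors at or above the floor 12 were below 0, or 63.2%, with a median of -0.06, which was -0.0366 as the mean over probe sets. The extremes were Mterf3 at 606 in the mutant and 845 in the wild-type array (-0.48), the GTPase gene Gtpbp10 at -0.31, and the GTPase genes Mtg1 and Mtg2 at 0.13 and 0.12.

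Genes for the transcription and upkeep of mitochondrial DNA had a median of -0.28, with 8 of 9 below 0 and 3 at least 1.3-fold lower. Among all genes at or above the floor, 55.0% were below 0 and 6.58% at least 1.3-fold lower. As the mean over probe sets the median of the list was -0.1218, again with 8 of 9 below 0. Tfam, which packages mitochondrial DNA and starts its transcription, had 309 in the mutant and 410 in the wild-type array (-0.41). Tefm, the elongation factor of mitochondrial transcription, had 125 in the mutant and 169 in the wild-type array (-0.44). Mterf1a had 53.2 in the mutant and 77.4 in the wild-type array (-0.54), the mutant value lying below the floor. The mitochondrial RNA polymerase gene Polrmt was the exception, at 0.08, and Tfb2m had -0.11. Tfam was named after its value was seen.

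Among 8 nuclear activators of mitochondrial genes at or above the floor, 6 were below 0, with a median of -0.13, where 55.0% of all genes were below 0. Ppargc1a, also on the list, was below the floor in mean signal, with 35.5 in the mutant and 62.4 in the wild-type array (-0.82). Myc, a general activator of ribosome production, had 1795 in the mutant and 2429 in the wild-type array (-0.44), and Gabpb1, a subunit of the ETS factor GABP, had 468 and 586 (-0.32). Its DNA-binding partner Gabpa had 0.10, and Nrf1, nuclear respiratory factor 1, had 162 in the mutant and 138 in the wild-type array (0.23). Yy1 had a log2 ratio of -0.15. The chaperones and proteases of the mitochondrial matrix spread most widely. Hspe1 and Hspd1, the 2 parts of the chaperonin that are also heat shock genes, had -0.91 and -0.73, whereas Clpx and Lonp1 had 0.09 and 0.04 and the list median was -0.16 over 9 genes.

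Ribosomal proteins of the cytosol had a median close to 0. Of 41 genes at or above the floor, 23 were above and 18 below 0, and the median was 0.01, with alternatives on both sides of 0, from -0.0104 after centring and -0.0048 as the mean over each gene's probe sets to 0.0304 after quantile normalization, 0.0445 without probe sets ending in _s_at, _x_at or _a_at and 0.0574 after loess. Rpl37 and Rps6 were lowest at -0.40 and -0.17, and Rpl12 and Rps9 highest at 0.20 and 0.12. Cytosolic ribosomal protein genes were mostly far brighter than the members, and the 42 with a probe set listed for that gene alone summed to 421987 in the mutant array. Of those named, Rps6, Rpl12 and Rpl37 were read from dimmer probe sets. These had 509, 1056 and 1613 in the mutant array, where the brightest of the list had 19565. The 47 Mrpl genes summed to 21358.5 and the 29 Mrps genes to 10890.5 in that array. The 2 kinds of ribosome are thus set side by side at unlike signal. In the brightest bin of genes the members' median was -0.04 and that of all genes -0.05. The difference between the 2 kinds of ribosome was not tested, as no replicate exists.

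**Figure D4:**
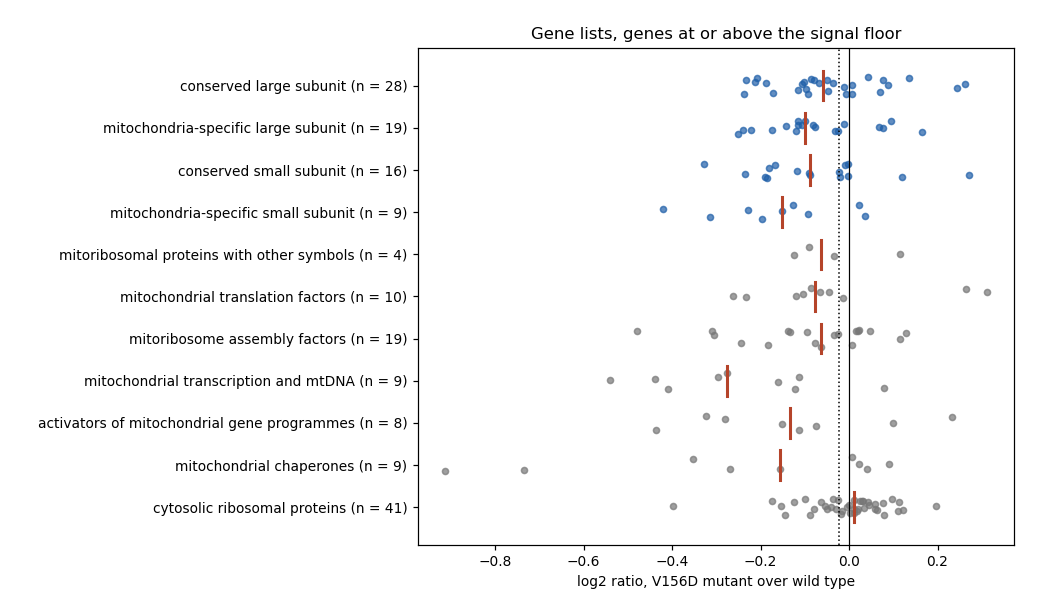
Log2 ratio of V156D mutant over wild type for each gene at or above the signal floor in the classes of mitoribosomal protein (blue) and in related lists (grey), with list medians in red and the all-gene median dotted. The medians of the 4 classes lie between -0.15 and -0.06, that of mitochondrial transcription genes at -0.28 and that of cytosolic ribosomal proteins at 0.01.

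Promoters of the members were searched for letters bound by factors known to act on genes of mitochondria, over 250 bases before and 50 after the start site on both strands, in RefSeq sequences of build GRCm38.p6 that covered 67 of the 76 genes with 73 promoters. The ETS motif CCGGAAG was present in 25 member promoters, or 34.2%, against 8.86% of all 32851 promoters and 16.6% of those of genes at or above the floor. The core of the NRF1 site, GCATGCG, which overlaps itself on the opposite strand when preceded by C, was present in 8, or 11.0%, against 3.58% and 6.18%. The YY1 core AAGATGG was present in 13, or 17.8%, against 6.34% and 6.95%. Member genes with any of these motifs numbered 37 and had a median log2 ratio of -0.09, and the 30 without had -0.10. Members with and without the letters thus had nearly the same median.

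The 150 bases upstream of the start are shown for 6 members, so that promoters of lower and higher ratio can be set side by side. These are the 3 lowest and the 3 highest of 15 members. Those 15 had such letters in these bases and no gene starting in the opposite direction within 1000 bases. The lowest and highest of all members, Mrps25 and Mrps24, are not among the 6. Capitals mark the motifs, and each sequence runs 5′ to 3′ on the gene's own strand toward the start site.
Mrpl17, chr7:105811088-105811237, minus strand, log2 ratio -0.23, NRF1 core: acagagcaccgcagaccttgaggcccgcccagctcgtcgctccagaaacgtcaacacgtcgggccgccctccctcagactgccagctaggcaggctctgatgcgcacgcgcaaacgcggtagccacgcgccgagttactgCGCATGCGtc
Mrpl3, chr9:105053118-105053267, plus strand, log2 ratio -0.17, ETS: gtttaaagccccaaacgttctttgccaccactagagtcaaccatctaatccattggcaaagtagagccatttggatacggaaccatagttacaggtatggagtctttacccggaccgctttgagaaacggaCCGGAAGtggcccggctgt
Mrps22, chr9:98601680-98601829, minus strand, log2 ratio -0.15, ETS: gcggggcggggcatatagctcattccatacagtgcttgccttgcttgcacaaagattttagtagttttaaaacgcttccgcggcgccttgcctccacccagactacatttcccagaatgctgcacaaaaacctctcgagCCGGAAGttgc
Mrpl36, chr13:73330859-73331008, plus strand, log2 ratio 0.04, YY1 core: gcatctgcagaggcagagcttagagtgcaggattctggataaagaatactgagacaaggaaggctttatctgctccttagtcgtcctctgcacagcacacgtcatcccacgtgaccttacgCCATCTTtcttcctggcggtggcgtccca
Mrpl22, chr11:58171514-58171663, plus strand, log2 ratio 0.09, NRF1 core and ETS: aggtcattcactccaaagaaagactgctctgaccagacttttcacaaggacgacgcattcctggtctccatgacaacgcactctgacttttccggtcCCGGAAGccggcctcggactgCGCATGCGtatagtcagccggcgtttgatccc
Mrpl34, chr8:71464776-71464925, plus strand, log2 ratio 0.26, ETS: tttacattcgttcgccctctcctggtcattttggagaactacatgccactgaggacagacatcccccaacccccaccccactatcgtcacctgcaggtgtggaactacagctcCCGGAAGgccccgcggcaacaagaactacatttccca
The ETS letters stand 11 bases before the start in Mrps22, 19 in Mrpl3 and 37 in Mrpl34. In Mrpl17 the NRF1 letters start 10 bases before the start site, and in Mrpl22 32 bases before it. The promoters shown were picked from both ends of the ratios of those 15 members, so letters found at both ends do not show whether they go with direction. Mrpl17, Mrpl3 and Mrpl34 each also had another probe set with a ratio of the opposite sign.

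Some members have a divergent neighbour, a gene that starts nearby on the opposite strand. Such a neighbour within 1000 bases was found for 25 members, 2 of which, Mrps11 and Mrpl46, neighbour each other. The share of all genes with such a neighbour was not worked out, so the count does not set the members apart. Of the 23 neighbours that are no members, 17 lay at or above the floor, with 8 ratios below and 9 above 0 and a median of 0.02. The 17 members beside them had a median of -0.12, with 14 below 0, and 8 of these 14 faced a neighbour above 0. For comparison, 55.0% of all genes at or above the floor were below 0 and 44.8% above. Sars2, the seryl-tRNA synthetase gene of mitochondria that faces Mrps12 at 147 bases, had 76.4 in the mutant and 56.5 in the wild-type array, a log2 ratio of 0.43, while Mrps12 had -0.09. Fau, a gene of a cytosolic ribosomal protein, had 0.04 beside Mrpl49 at -0.22, and Ndufb5, a subunit of respiratory complex I, had 0.04 beside Mrpl47 at -0.21. Twnk, the mitochondrial DNA helicase, had -0.12 beside Mrpl43 at -0.08. Both genes were below 0 in 6 of the 17 pairs. Among these, Ppp1r10 had -0.60 beside Mrps18b at -0.12, Klc4 had -0.23 beside Mrpl2 at -0.12 and Gga3 had -0.13 beside Mrps7 at -0.17. The neighbours were named after their values were seen.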

How the data were processed

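Each sample was 1 array of RNA from pooled rib chondrocytes. The deposited table gives linear intensities of 45037 probe sets, and MAS5 is named, without version or settings, in the submitters' processing notes. The sources used here do not give the scaling or background steps, and a background step can alter differences at low signal. Precision is limited by there being 1 array per group.

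Names came from GEO's platform annotation, in which 34945 had 1 symbol, 932 several and 9160 none. By Entrez identifier 34741 matched RefSeq of GRCm38.p6, and 0 symbols changed. The log2 of each deposited intensity was used without further normalization, in Python 3.11.15 with numpy 2.4.6, pandas 2.3.3, scipy 1.17.1 and statsmodels 0.14.6, and counting was tested on simulated data. Thresholds were 1.3-fold and 1.5-fold. Genes were named as the 8 highest and 8 lowest members, the 4 brightest and 4 dimmest, members of role lists, members whose probe sets disagreed past 1.3-fold, and the 2 highest and 2 lowest of each related list; others are named after their values were seen. The members, lists and thresholds were chosen with earlier results of these data known. The motifs, the promoters shown and the divergent neighbours were added after seeing the data. Alternatives were centring, quantile normalization, loess, an offset of 32, other floors, the mean over probe sets, and omitting probe sets whose names mark several possible targets.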

Additional observations from a re-analysis of the deposited data

How the results depend on the processing

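The median of the 76 genes stayed below 0 in all 9 alternatives, between -0.11 after centring and -0.0398 after quantile normalization. Members above 0 numbered 28 after quantile normalization and 28 after loess, against 17. The count at least 1.3-fold lower was 0 with an offset of 32, 0 as the mean over all probe sets and 3 without probe sets ending in _s_at, _x_at or _a_at (59 members left). At 1.5-fold the counts were 0 in each alternative. The exit-side median was 0.0150 after quantile normalization, 0.0062 after loess and 0.0269 without those probe sets. The cytosolic median was -0.0104 after centring, -0.0048 as the mean over probe sets, 0.0445 without those probe sets and 0.0574 after loess. Averaging probe sets brought the mitochondrial transcription list to -0.1218, above the mitochondrial chaperones at -0.1561, and quantile normalization the conserved large subunit to -0.0061. Single genes kept the sign of their ratio in every alternative in 51 cases, and 25 turned in at least 1, in 39 of 665 values. No paired analysis was possible because each genotype had 1 array. Without replicates, no value here carries an error between samples, and differences of 0.18 or less lie within the scatter of single probe sets.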

Other observations

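Probe sets outside the gene comparison also measured mitoribosomal transcripts, jointly with another gene. The brighter of the 2 listed for Mrpl30 and the predicted gene Gm6238 had an intensity of 1232 in the mutant and 1408 in the wild-type array, a log2 ratio of -0.19. That listed for Mrpl53 and Ccdc142 had 559 in the mutant and 575 in the wild-type array, a log2 ratio of -0.04. That listed for Mrps34 and the nucleoside diphosphate kinase gene Nme3 had 108 in the mutant and 96.4 in the wild-type array, a log2 ratio of 0.16, whereas the probe set of Mrps34 alone had -0.23. ND5, a complex I subunit encoded by mitochondrial DNA and translated by the mitoribosome, had 4038 in the mutant and 4128 in the wild-type array, a log2 ratio of -0.03.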
